A study of Mus musculus with 454 samples.

Results

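Asic1, Asic2 and Asic3 are the 3 genes of acid-sensing ion channels followed here through single neurons of nodose ganglia of mice, where vagal sensory nerves have their cell bodies. They were taken by symbol and were all found, as 3 of the 36920 genes in a table of individually picked cells and 3 of the 28001 genes in a droplet (10x Genomics) matrix. All animals were wild-type C57BL/6 mice, given as C57BL/6JN in the series description, with no transgene or treatment named. The series has 454 samples, of which 1 is a droplet library from mice 6 weeks old and the others are picked cells from mice 8 to 12 weeks old that were amplified by Smart-seq2. For every picked cell, header lines of the table name the mouse it came from and a code for its target, and the codes are used as written (GastG, GastP, IntP, IntM, IntD, IntL, Port), because the sources used here do not spell them out. The picked cells used here leave out 1 without a matching column and 3 with fewer than 2000 genes. The mouse was the replicate, and mice with at least 4 cells entered the comparisons: 5 for GastG, 3 for GastP, 4 for IntP, 3 each for IntM, IntD and IntL, and 8 for Port. Another 4 mice gave 53 cells coded na, which stand in no comparison.

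Acid-sensing ion channels belong to the DEG/ENaC family of sodium channels and open when the fluid outside the cell turns acidic. Subunits assemble as trimers of one kind or of mixed kinds, and the make-up of a channel sets its sensitivity to protons and how fast it closes again. ASIC1 carries transient currents, and the spider toxin psalmotoxin blocks some of the channels that it forms alone. ASIC2 is a less acid-sensitive subunit that changes the properties of channels it joins, and ASIC3 is known for sustained current at mild acidity and for its place in peripheral sensory neurons. In visceral afferents all 3 have been studied for roles in sensing acid and stretch.

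The members are related in sequence, which bears on whether short reads can be told apart. In the mouse build mm10 (GENCODE M21), Asic1 (ENSMUSG00000023017) lies at chr15:99670368-99701130 on the plus strand, Asic2 (ENSMUSG00000020704) at chr11:80880169-81968457 on the minus strand and Asic3 (ENSMUSG00000038276) at chr5:24413392-24417835 on the plus strand. None of them shares exon bases with another annotated gene, although 6 genes overlap the long span of Asic2. Aligned coding sequences were 72.1% identical between Asic1 and Asic2, and 67.6% identical between Asic3 and either of them. The longest run of identical bases was 32 between Asic1 and Asic2, and it is shown here in capitals with its flanks because it is the longest stretch that a read could not assign to one of the genes. Both lines are coding exon sequence, Asic1 at chr15:99694777-99694828 on the plus strand and Asic2 at chr11:80971480-80971531 on the minus strand.
Asic1: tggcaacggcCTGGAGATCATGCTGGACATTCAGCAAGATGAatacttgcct
Asic2: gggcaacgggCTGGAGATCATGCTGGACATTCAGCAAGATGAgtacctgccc
Runs shared with Asic3 were shorter, at 14 bases with either of the others in the coding sequences compared. The longest run common to all 3 was 10 bases, in capitals in the lines that follow, at chr15:99695518-99695575 (plus strand), chr11:80952505-80952562 (minus strand) and chr5:24415855-24415912 (plus strand), all within coding exons.
Asic1: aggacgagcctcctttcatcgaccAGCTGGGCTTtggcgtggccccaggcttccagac
Asic2: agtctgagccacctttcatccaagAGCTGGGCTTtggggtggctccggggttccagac
Asic3: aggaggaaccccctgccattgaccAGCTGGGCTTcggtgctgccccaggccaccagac
The lines differ on both sides of the run. The sources used here do not say how reads that fit more than 1 gene were counted.

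Picked cells held a median of 1617516 reads and 11376 genes, with median reads per code between 1370328 (IntM) and 1895910 (Port). At 10 reads, the neuron gene Snap25 was detected in every picked cell. Of the nodose marker genes, Hoxb5 was detected in all but 1 cell, P2rx2 in all but 5, Htr3a in 83.1% and Prox2 in 45 cells. Of the jugular markers, Prdm12 was detected in 3 cells and Gfra3 in 46, but Prrxl1 in 25.8%, Runx1 in 40.3% and Isl2 in all but 1 cell. The droplet library held 1108 cells with a median of 55397.5 unique molecular identifiers (UMIs), of which 1087 were neurons and 21 satellite glia. With 1 droplet library, its values have no replicate check and its intervals, exact at 95%, cover counting error only.

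Asic2 was the most widely detected of the 3 in both data sets, Asic1 was found in a minority of picked cells and Asic3 in fewer still. At 10 or more reads, Asic2 was detected in 87.5% of picked cells (exact Clopper-Pearson 84.1% to 90.4%). Asic1 was detected in 27.2% (23.1% to 31.5%) and Asic3 in 13.8%, or 62 cells (10.8% to 17.4%). Levels of picked cells are in CPM, a gene's reads scaled to the total of its cell. Divided by the length of exons, the mean level over 29 mice was 10.2 ± 4.4 CPM per kilobase for Asic2, 1.59 ± 1.43 for Asic1 and 2.44 ± 4.4 for Asic3 (SD over mice). On that scale Asic2 stood above both others, while the spread of Asic3 over mice was larger than its mean. The signal of Asic3 sat in a few cells, since the 10 highest cells held 63.8% of its summed CPM, against 31.3% for Asic1 and 11.8% for Asic2. The highest single cell reached 609.2 CPM for Asic3, 264.7 for Asic1 and 326.9 for Asic2.

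Droplet neurons gave the same order of detection. On the same scale computed from UMIs, Asic2 was at 52.5 CPM (50.8 to 54.3), Asic1 at 22.6 (21.4 to 23.7) and Asic3 at 8.00 (7.34 to 8.71). At least 1 UMI was found in 866 of 1087 neurons for Asic2 (79.7%), in 519 for Asic1 (47.7%) and in 20.1% for Asic3. In the 21 satellite glia the counts were 1 cell for Asic2, 0 for Asic1 and 1 for Asic3, where a count of 0 allows up to 14.3% of cells with a UMI (3 counts), which sets no limit on expression. Their median depth was 14919 UMIs against 56119 in neurons. When every cell was thinned to 10000 UMIs the shares of neurons were 37.4%, 19.1% and 6.90%, and no thinned glial cell held a UMI of any of the 3. Barcodes under 100 UMIs, a measure of free RNA, held 25 UMIs of Asic2, 10 of Asic1 and 3 of Asic3 among 619345. In CPM that is 40.4 (26.1 to 59.6), 16.1 (7.74 to 29.7) and 4.84 (0.999 to 14.2), and each interval holds the level of neurons. The part of free RNA in the shares of cells was not tested.

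Most cells with a member detected had Asic2. Of the picked cells, 57.5% had Asic2 as the only member detected, 78 cells had Asic1 with Asic2, 34 had Asic2 with Asic3 and 23 (5.12%) had all 3. Asic1 alone was found in 20 cells, Asic3 alone in 4, Asic1 with Asic3 in 1, and none of the 3 in 31 (6.90%). Among the 1087 droplet neurons 34.1% had only Asic2, 28.3% Asic1 with Asic2, 10.9% all 3 and 10.5% none. Asic1 and Asic3 met in 24 picked cells where independent detection would give 16.9, and in droplet neurons they met 1.30 times as often as independent detection would give. For Asic1 with Asic2 that ratio was 0.946 in picked cells and 1.03 in droplet neurons. These are descriptions, since cells share their mice or their library and deeper cells detect more genes.

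**Figure D1:**
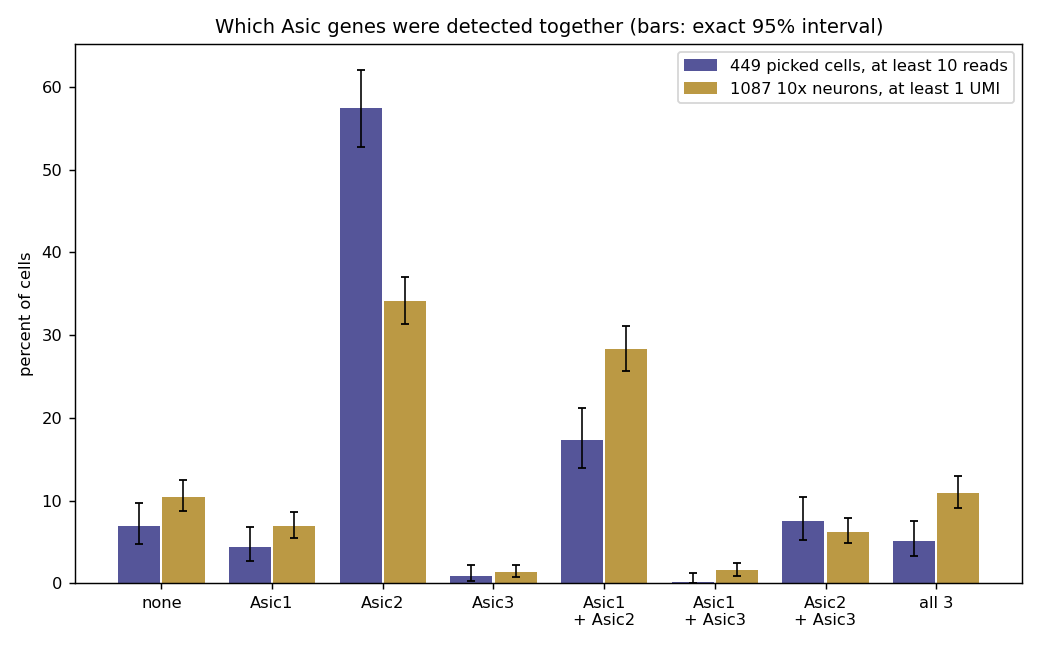
Percent of cells (vertical axis) with each combination of Asic genes, for picked cells at 10 or more reads and 1087 droplet neurons at 1 or more UMIs, with exact 95% intervals. Asic2 alone is the tallest pair of bars, at 57.5% and 34.1%, and Asic3 without Asic2 is rare in both.

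Asic1 was higher in cells of Gast codes than in cells of Int codes. Levels are means over a mouse's cells of log2(CPM + 1), so fold changes of low genes are understated. The 5 GastG mice stood at 2.20, 3.16, 0.90, 2.98 and 2.41, and the 3 GastP mice at 1.94, 1.31 and 2.80. The 4 IntP mice stood at 0.36, 0.83, 0 and 1.00, the IntM mice at 0.74, 1.29 and 1.17, the IntD mice at 1.18, 0.47 and 0.45, and the IntL mice at 1.32, 1.03 and 1.46. Of 8 Gast mice 7 were above the median of the 13 Int mice. A GastG mouse at 0.90 and a GastP mouse at 1.31 lay within the range of the Int mice, so the groups overlapped. The Gast mean exceeded the Int mean by 1.28 ± 0.27 (SE; limma, Benjamini-Hochberg adjusted p = 0.00114 over 12693 genes). In that comparison 14.8% of the genes tested were called, 9.04% higher in Gast and 5.72% lower. The difference was 0.55 with log2(CPM + 10), 2.03 with log2(CPM + 0.1) and 2.09 on the log2 scale in edgeR on reads summed per mouse, and it was called in each (adjusted p = 0.00144, 0.00379 and 0.00852).

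The share of cells with Asic1 moved the same way. Pooled over mice, 40% of GastG cells, 33.3% of GastP cells and 34.4% of Port cells had at least 10 reads. The shares were 4.44% in IntP (2 of 45 cells), 14.3% in IntD, 20.5% in IntL and 22.2% in IntM. Per mouse, the share was 37.9% ± 15.1 over 8 Gast mice and 13.9% ± 11.1 over 13 Int mice (SD). At 1 read the shares were 63.3% in GastG and 57.8% in GastP, against 28.9% (IntP) to 42.9% (IntD) in the Int codes. A mouse mean falls with fewer cells holding the gene and with less of it per cell. A share at a threshold is moved by both, and the 2 were not separated here.

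Other transcripts differed between the same groups. The nodose markers P2rx2, Htr3a, Prox2 and Hoxb5 summed to between 408.3 and 3532 CPM in Gast mice with a median of 1511, and to between 2311 and 8351 in Int mice with a median of 7461. Of these 4, 3 were lower in Gast, where 5.72% of all genes were lower. The 5 jugular markers (Prdm12, Prrxl1, Runx1, Isl2, Gfra3) ran from 246.7 to 509.2 CPM in Gast and from 186.4 to 367.6 in Int, and 2 of the 4 tested were higher, against 9.04% of all genes. Of 5 dissociation response genes 2 were higher, with sums of 409.4 to 845.5 CPM in Gast and 130.9 to 843.6 in Int, and of 7 nerve injury genes 1 was higher, with sums of 186.9 to 2514 and 85.03 to 533.8. None of 6 satellite glia markers was called, and the 4 endothelial markers summed to at most 3.67 CPM in any Gast mouse and 6.67 in any Int mouse. The 4 fibroblast markers reached 416.9 CPM in a Gast mouse and 26.4 in an Int mouse, with medians of 4.98 and 5.21. Neither of the 2 tested was called. Immune markers reached 35.1 CPM in Gast and 96.7 in Int, and the 1 red blood cell marker tested was higher in Gast. The part of these transcripts in the Asic1 difference was not tested. Without 4 mice of high nerve injury transcripts (Port 21, 22 and 27 and GastP 44) the Asic1 difference was 1.08 (adjusted p = 0.00468).

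**Figure D2:**
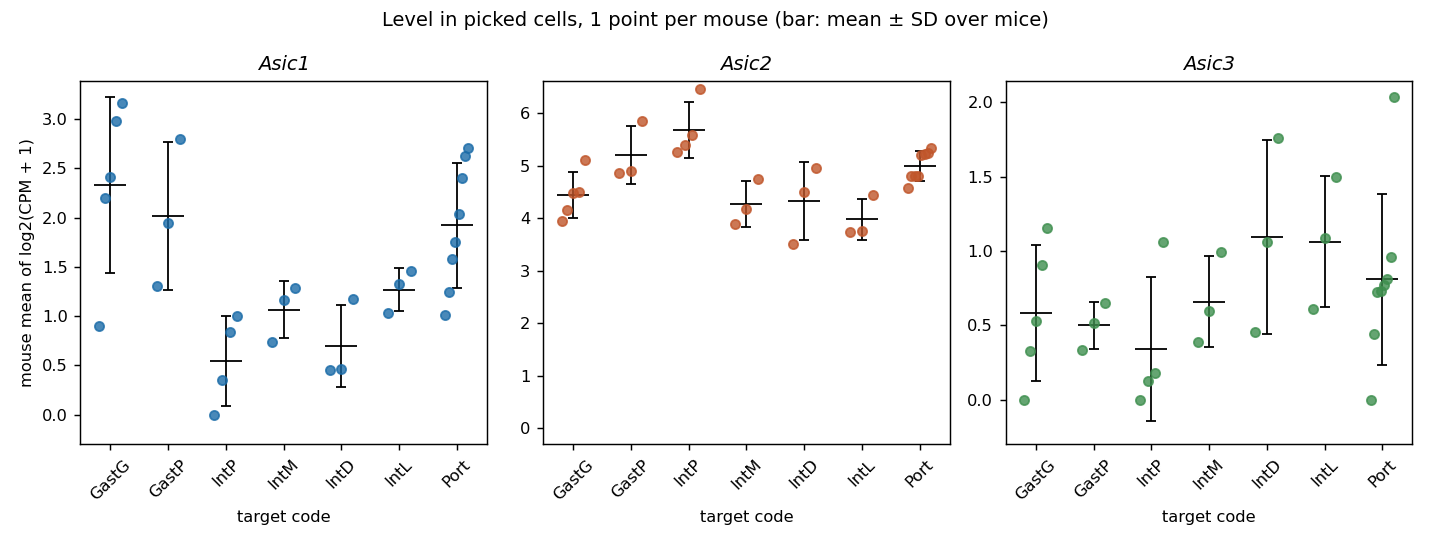
Mean of log2(CPM + 1) over the picked cells of each mouse (vertical axis, 1 point per mouse) by target code for Asic1, Asic2 and Asic3, with the mean ± SD over mice. Most Gast and Port mice lie above the Int mice for Asic1, the 4 IntP mice lie above the other Int mice for Asic2, and the codes overlap for Asic3.

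Asic2 varied within the Int codes, with IntP above the rest. The IntP mice stood at 5.41, 5.26, 6.47 and 5.60. The IntM mice were at 4.75, 3.90 and 4.19, the IntD mice at 3.51, 4.51 and 4.97, and the IntL mice at 4.44, 3.76 and 3.74. All 4 IntP mice were above every one of the 6 IntM and IntD mice, with means of 5.69 and 4.30. The difference was 1.38 ± 0.28 (SE; limma, adjusted p = 0.00429), in a comparison that called 7.92% of genes, 6.16% higher in IntP and 1.76% lower. It remained called when any 1 mouse was left out, between 1.12 and 1.54, and in edgeR on summed reads (1.09, adjusted p = 0.0471). Every IntP cell passed 10 reads of Asic2 (45 of 45, exact interval 92.1% to 100%), as did 86.7% of IntM, 82.9% of IntD and 72.7% of IntL cells. Across the 4 Int codes the limma F statistic was 11.5 (adjusted p = 0.00361, with 9.87% of genes called), and this call was lost when reads were summed per mouse, with adjusted p = 0.0943 in limma and 0.0990 in edgeR.

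Between Gast and Int as wholes Asic2 differed by 0.26 ± 0.20 (SE; limma, adjusted p = 0.435), which did not pass. The GastG mice stood at 4.49, 5.11, 3.95, 4.17 and 4.50 and the GastP mice at 5.85, 4.87 and 4.90, and the groups overlapped. GastG was 0.76 ± 0.31 lower than GastP by its estimate (unadjusted p = 0.0218 in limma, adjusted p = 0.996), in a comparison where 0.00% of genes were called. Port mice ranged from 4.59 to 5.34 with a median of 5.01, a narrower spread (SD 0.28) than any other code showed for Asic2.

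Asic3 showed no called difference between codes. GastG mice stood at 0.53, 0, 0.33, 0.91 and 1.15, GastP mice at 0.65, 0.34 and 0.52, and IntP mice at 0.18, 0.12, 0 and 1.06. IntM mice were at 0.39, 0.60 and 0.99, IntD mice at 1.06, 1.76 and 0.45, and IntL mice at 1.495, 1.09 and 0.61. Port mice ran from 0 to 2.04 with a median of 0.75. All codes overlapped, and the F test across the 7 codes gave 1.24 (limma, adjusted p = 0.432), where 22.3% of genes were called. The share of cells with 10 reads lay between 4.44% (IntP) and 22.9% (IntD), on counts of 2 to 19 cells per code. Gast minus Int was -0.25 ± 0.22 (SE; adjusted p = 0.511), and its sign turned with reads summed per mouse (0.32 in limma, 0.78 in edgeR).

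Ordered by mean, Asic1 ran from GastG (2.33 ± 0.89, SD over mice) through GastP (2.02 ± 0.75), Port (1.92 ± 0.63), IntL (1.27 ± 0.22), IntM (1.07 ± 0.29) and IntD (0.70 ± 0.41) to IntP (0.55 ± 0.45). For Asic2 the order was IntP (5.69 ± 0.54), GastP (5.21 ± 0.56), Port (5.002 ± 0.28), GastG (4.44 ± 0.44), IntD (4.33 ± 0.75), IntM (4.28 ± 0.43) and IntL (3.98 ± 0.40). On this scale IntP was at opposite ends for the 2 genes, but in mean CPM Asic1 was lower in IntD (1.46 ± 1.53, SD over mice) than in IntP (2.58 ± 3.54). No pair of neighbours in either order was called. Of the 21 pairs of codes, 5 were called for Asic1, 4 for Asic2 and 0 for Asic3 (limma, each pair adjusted over 12693 genes). For Asic1 they were GastG over IntP (1.78 ± 0.39, adjusted p = 0.00339), GastG over IntD (1.63), GastP over IntP (1.47), and Port over IntP and IntD. For Asic2 IntP was above GastG, IntM, IntD and IntL, with the largest difference against IntL (1.70 ± 0.33, adjusted p = 0.00140). Of all genes 12.8% were called between GastG and IntP, 8.05% between GastG and IntD, 7.80% between GastP and IntP, 23.8% between Port and IntP and 9.83% between Port and IntD. Between IntP and the other Int codes the shares were 2.64% for IntM, 3.85% for IntD and 12.4% for IntL. With reads summed per mouse the difference of IntP from IntL was 0.71 in limma and 0.73 in edgeR, below those from IntM (0.97 and 1.02) and IntD (1.17 and 1.16). All 4 Asic2 pair calls were lost in limma on summed reads, all 9 pair calls in edgeR on summed reads, and 5 of them on leaving out 1 mouse. Those were Asic1 in GastG over IntD (without IntD mouse 18 or 19, adjusted p = 0.0678 and 0.103), Asic1 in GastP over IntP (without GastP mouse 9 or 44 or IntP mouse 11 or 16, adjusted p from 0.0920 to 0.256), Asic1 in Port over IntD (17 of 29 fits, adjusted p from 0.0505 to 0.212), Asic2 in IntP over IntM (without IntP mouse 11, 16 or 17 or IntM mouse 20 or 26, adjusted p from 0.0527 to 0.123) and Asic2 in IntP over IntD (without IntP mouse 16 or 17 or IntD mouse 14, adjusted p from 0.0559 to 0.121).

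The remaining contrasts did not pass for any member. Port minus the mean of Gast and Int was 0.39 ± 0.24 for Asic1, 0.31 ± 0.18 for Asic2 and 0.14 ± 0.20 for Asic3 (SE; limma, adjusted p = 0.350, 0.313 and 0.717), where 4.99% of genes were called. Of the 7 nerve injury genes, 4 were higher in Port in that contrast and 0 lower. Their sums ran from 222.3 to 9001 CPM in Port mice with a median of 1665, against medians of 327.7 in Gast and 201.7 in Int. Their part in the Port levels and in the pair calls with Port was not tested. IntL minus the other Int codes was -0.78 ± 0.28 for Asic2 (adjusted p = 0.108, against 5.54% of genes called), and it passed without IntD mouse 14 (-0.92, adjusted p = 0.0415). IntL minus Gast was -0.90 ± 0.40 for Asic1 and -0.85 ± 0.29 for Asic2 (adjusted p = 0.242 and 0.121, 3.21% called). IntM and IntD differed by 0.37, -0.05 and -0.43 for the 3 genes, none called, as for 0.00% of all genes.

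**Figure D3:**
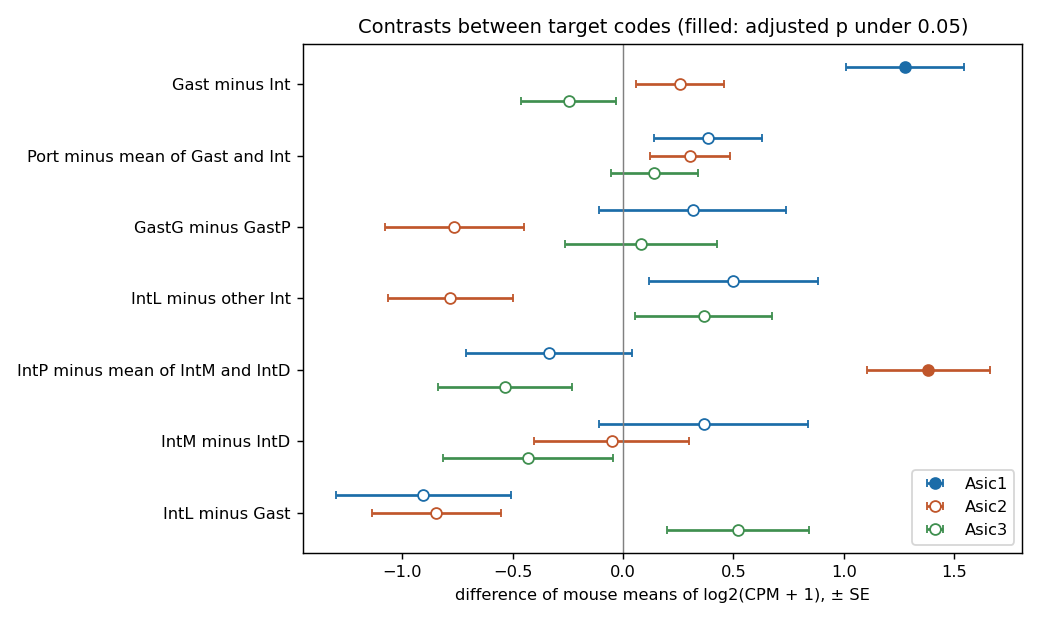
Difference between groups of target codes in mouse means of log2(CPM + 1) (horizontal axis, with SE) for each contrast and gene, with filled points where the limma adjusted p is under 0.05. Filled points are Asic1 in Gast minus Int (1.28) and Asic2 in IntP minus the mean of IntM and IntD (1.38).

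In the droplet library a different cluster was highest for each member, out of 28 neuron clusters built without the Asic genes, and clusters 18, 22 and 23 were among the highest 4 for both Asic1 and Asic3. Asic1 was highest in cluster 18, led by Slc18a3 and also holding Runx3 and Pvalb among its top genes, at 174.8 CPM (158.2 to 192.6). All 36 cells of that cluster had Asic1, with 2 to 26 UMIs and a median of 10.5, and they held 26.5% of the Asic1 UMIs of all neurons. Cluster 23, which had the glutamate transporter gene Slc17a7 among its leading genes, followed at 140.9, with Asic1 in 18 of its 20 cells. Clusters 22, 9 and 11 were next at 57.04, 52.9 and 51.6, with overlapping intervals, and the median over clusters was 14.4. At the bottom was cluster 13, led by the proton-sensing receptor gene Gpr65, with 3 UMIs in 40 cells (0.667 CPM, 0.138 to 1.95) although its cells were the deepest of all clusters, with a median of 113219 UMIs. Cluster 9 was led by endothelial genes, with Cldn5 first (193.2 CPM, in 8 of 45 cells), so its leading genes go against a place among neurons, although all 45 cells held Snap25. In its 34 cells with no UMI of an endothelial marker, Asic1 was at 54.3 CPM (42.7 to 68.1). Without cluster 9, neurons as a whole stood at 21.8 CPM for Asic1, 51.1 for Asic2 and 7.83 for Asic3.

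Asic2 was spread more evenly. It was highest in cluster 25 (32 UMIs in 12 cells, with an interval of 88.3 to 182.2 CPM), followed by 122.8 CPM in cluster 27 and 122.6 in cluster 20, and ran down to 16.2 in cluster 7, 15.5 in cluster 4 and 10.2 (6.97 to 14.4) in cluster 14, with a median of 59.04. The intervals of the highest clusters overlapped, and cluster 25 had a median of only 18854.5 UMIs per cell. In the Gpr65-led cluster 13, where Asic1 was lowest, all 40 cells had Asic2, at 70.5 CPM (62.9 to 78.7).

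Asic3 was concentrated in cluster 19, the 25 cells that met the jugular-like markers. There it stood at 100.3 CPM (85.8 to 116.6), 170 UMIs in 17 of 25 cells, which is 31.4% of all Asic3 UMIs in neurons. Single cells of the cluster ranged from 0 to 28 UMIs with a median of 3. Prdm12 was found in 25 of 25 of these cells (193.5 CPM) and Gfra3 in 14, while P2rx2 was at 24.8 against 293.6 in all other neurons. Low P2rx2 was not particular to cluster 19, as it stood at 36.7 in cluster 21 and 34.8 in cluster 23. The nodose markers Htr3a and Hoxb5 were also lower in cluster 19 (111.5 and 28.9 against 549.6 and 658.2), but each was found in 20 of its 25 cells. For Asic3, clusters 23 (49.2), 22 (30.4), 18 (20.3) and 15 (17.8) came next, and clusters 21 and 0 were lowest, at 0.583 and 0.579. Against all other neurons, cluster 19 had 17.8 times the level of Asic3 (exact interval 14.8 to 21.4), 1.64 times that of Asic2 (1.38 to 1.94) and 0.860 times that of Asic1 (0.590 to 1.21). Cluster 21, whose 22 cells had the next highest score for jugular markers, held 1 UMI of Asic3. In coarser clustering the jugular-like cluster grew to 47 cells by taking in cluster 21, and its Asic3 ratio was 8.69 (7.21 to 10.4), so high Asic3 was seen in cluster 19 and not in the cluster nearest to it by those markers. The picked cells held no cell matched to cluster 19.

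**Figure D4:**
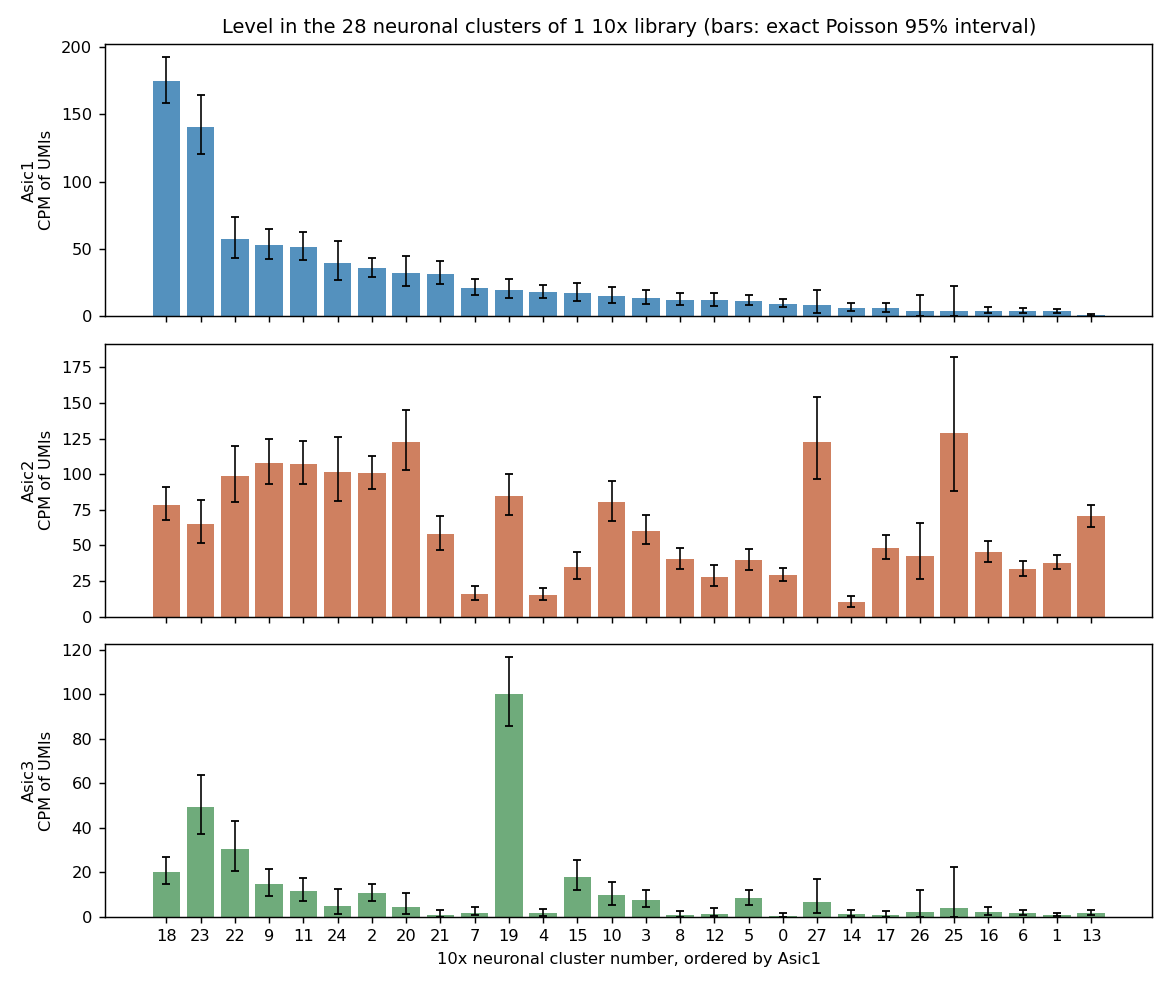
Level in CPM of UMIs of Asic1, Asic2 and Asic3 (vertical axes, starting at 0) in the 28 neuronal clusters of the droplet library, ordered by Asic1, with exact Poisson 95% intervals. Asic1 peaks in clusters 18 (174.8) and 23 (140.9), Asic3 in cluster 19 (100.3), and Asic2 is spread over most clusters.

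Picked cells were matched to these clusters by the rank correlation of 628 cluster genes, with the Asic genes and the other acid-sensing genes left out. All of them were assigned, to 23 of the 28 clusters, and clusters 13, 6 and 16 took 85, 76 and 70 of them. The member levels of matched cells followed the droplet levels: over 13 clusters with at least 10 picked cells, Pearson's r was 0.87 for Asic1, 0.77 for Asic2 and 0.89 for Asic3. Those points share the matching and differ in cell number, so they are a description. Asic1 passed 10 reads in 2 of 85 cells matched to cluster 13, and in 8 of 8 cells matched to cluster 2, whose mean was 6.11. The 2 cells each matched to clusters 18 and 23, the droplet clusters richest in Asic1, had means of 7.19 and 7.30.

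**Figure D5:**
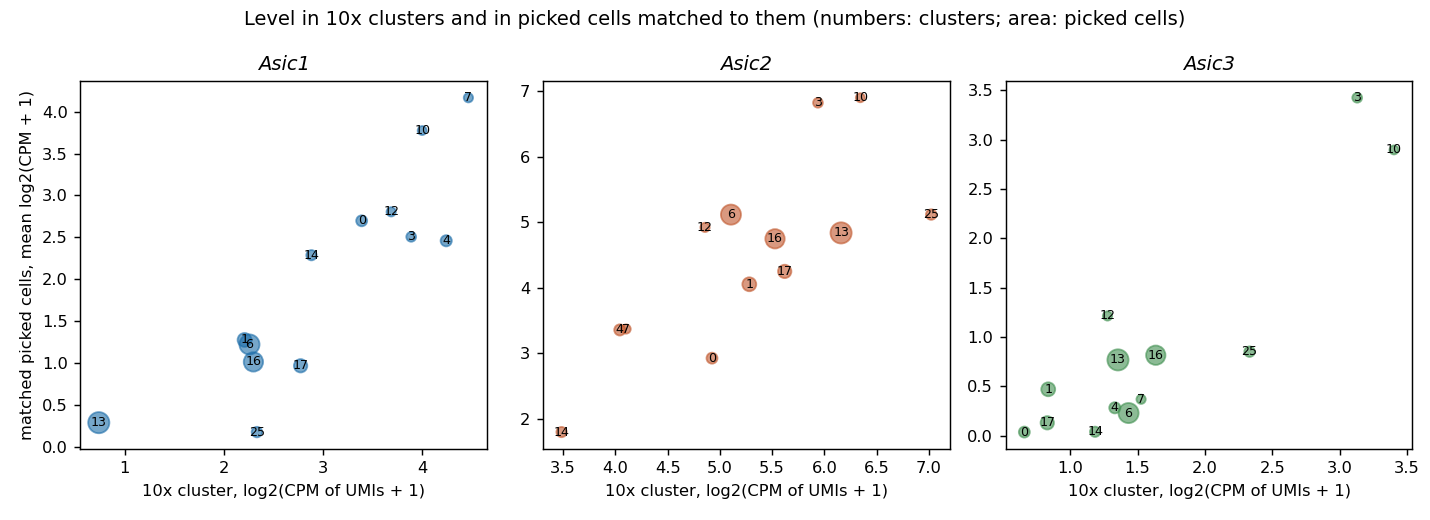
Mean log2(CPM + 1) of picked cells matched to a droplet cluster (vertical axis) against that cluster's log2(CPM + 1) from UMIs (horizontal axis), for the 13 clusters with at least 10 picked cells. Point area shows the number of picked cells and the numbers name clusters, and cluster 13 is lowest on the horizontal axis for Asic1.

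The Gast and Int codes drew on different clusters. Cluster 13, nearly without Asic1, took 34.3% of Int cells (58 cells) and 3.81% of Gast cells (4 cells), and cluster 6, led by Sst, took 41.9% of Gast cells and 2.96% of Int cells. With cells of both clusters left out, and mice of at least 3 remaining cells, the Asic1 difference was 1.78 ± 0.44 (SE; limma, adjusted p = 0.0185). The remaining cells still differed in cluster, as cluster 16 took 22.5% of Int cells and 5.71% of Gast cells. Clusters 7 and 2, with Asic1 means of 4.165 and 6.11, held 8 and 4 Gast cells and 0 Int cells. Clusters 0 and 12, at 2.70 and 2.805, held 3 and 1 Gast cells and 10 and 6 Int cells. The part of cluster make-up in the Asic1 difference was not tested. Within cluster 16, led by Dbh and Mfap5, Asic1 averaged 2.59 in 6 Gast cells of 5 mice (mouse means 0 to 4.34). In 38 Int cells of 11 mice it averaged 0.75 (0 to 2.23). Within cluster 6 Asic1 averaged 1.30 in 44 Gast cells (mouse means 0.57 to 2.085) and 0.92 in 5 Int cells (0.50 to 2.25). There 20.45% of the Gast cells and 20% of the Int cells had 10 reads. Mouse means of Gast and Int overlapped in both clusters. No test was made within clusters, and few cells of one side stand in each.

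The IntP level of Asic2 was also seen within single matched clusters. In cluster 13 it averaged 6.28 in 11 IntP cells, with mouse means from 5.31 to 7.04, against 4.87 in 14 IntM cells (4.47 to 5.16), 4.56 in 20 IntD cells (3.91 to 5.67) and 4.14 in 13 IntL cells (3.92 to 4.52). In cluster 16 the mean was 5.30 in 25 IntP cells (4.99 to 5.69), against 3.88 in 6 IntM cells (3.15 to 4.28), 4.17 in 4 IntD cells (4.14 to 4.24) and 4.45 in 3 IntL cells (4.39 to 4.47). Mouse means of IntP did not overlap those of other Int codes in cluster 16, and overlapped only those of IntD in cluster 13. With both fullest clusters, 13 and 6, left out, IntP exceeded the mean of IntM and IntD by 1.73 ± 0.35 (SE; limma, adjusted p = 0.00613). Cluster 16 stayed in that comparison. It held 55.6% of IntP cells against 13.3% of IntM, 11.4% of IntD and 6.82% of IntL cells, while cluster 6 held 2.96% of Int cells. The part of cluster make-up in the Asic2 difference was not tested.

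Other genes of acid sensing, DEG/ENaC channels and ASIC partners were followed as a list of 26, of which 15 passed the filter on low reads. Between Gast and Int, 4 were higher and 4 lower, where 9.04% and 5.72% of all genes were, and the list's median difference of 0.10 was near the 0.07 of all genes. Higher in Gast were Trpv1, the capsaicin and heat receptor (1.69 ± 0.45, SE; limma, adjusted p = 0.00997), and the tandem pore potassium channel genes Kcnk1 (1.86 ± 0.26, adjusted p = 8.10e-06) and Kcnk2 (1.20 ± 0.31, adjusted p = 0.00734). Slc4a4, a sodium bicarbonate cotransporter, was also higher (0.99 ± 0.30, adjusted p = 0.0254). Lower were Gpr65 (-2.72 ± 0.51, adjusted p = 0.000392), the ATP-gated channel subunit P2rx2 (-1.41 ± 0.23, adjusted p = 7.06e-05), the tandem pore channel gene Kcnk18 (-1.09 ± 0.34, adjusted p = 0.0263) and the carbonic anhydrase gene Car2 (-0.64 ± 0.22, adjusted p = 0.0457). The ASIC-binding partners Pick1, Stom and Stoml1 differed by -0.19, 0.12 and -0.24, none called.

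Several of these calls were lost when a single mouse or the cells of the fullest clusters were left out. Kcnk1 stayed called under all 10 alternatives and with any mouse left out, at 0.98 in limma and 0.99 in edgeR on summed reads. Without cells of clusters 13 and 6, Trpv1 fell by estimate to 0.42 (adjusted p = 0.633), Kcnk2 to 0.07 (adjusted p = 0.959), Gpr65 to -1.52 (adjusted p = 0.0582) and P2rx2 to -0.90 (adjusted p = 0.161). That setting called 545 genes between Gast and Int in place of 1874, and Gpr65 itself led cluster 13. A call lost there does not show that it rested on those clusters. With reads summed per mouse, P2rx2 stayed called at -0.81 in limma, while Kcnk2 was lost at 0.79 in limma and 0.60 in edgeR (adjusted p = 0.108 and 0.193). Kcnk18 was lost in 5 alternatives, at -1.09 with no filter on low reads, -0.58 and -0.53 in limma and edgeR on summed reads, -0.50 with mice numbered up to 39 and -0.77 without the mice of high nerve injury transcripts (adjusted p from 0.0522 to 0.322). Slc4a4 was lost with summed reads in limma (0.88), without the mice of high nerve injury transcripts (0.74) and without the 2 clusters (1.08). Car2 was lost in 6 alternatives, between -0.69 and -0.20, and Trpv1 with mice numbered up to 39 (1.75, adjusted p = 0.0570). The Trpv1 call was lost without GastP mouse 10 (adjusted p = 0.0532), the Kcnk18 call without GastG mouse 41 or GastP mouse 44 (adjusted p = 0.0520 and 0.151), and the Slc4a4 call without any of GastG mice 7 and 8, GastP mice 10 and 44 and IntL mouse 34 (adjusted p from 0.0510 to 0.132). The Car2 call was lost in 16 of 29 such fits. In IntP against IntM and IntD, where Asic2 was higher, Kcnk18 was higher (1.59 ± 0.47, adjusted p = 0.0355) and Kcnk2 and Stom were lower (-2.18 and -0.97, adjusted p = 0.00400 and 0.0239). No gene of the list was called between GastG and GastP or between IntM and IntD.

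Cell by cell, Asic1 and Gpr65 met less often than independent detection would give, at a ratio of 0.28 in picked cells and 0.666 in droplet neurons. They were detected together in 14 picked cells where independent detection would give 50, and in 56 droplet neurons where it would give 84.03. Asic1 met Trpv1 1.30 times as often as independent detection would give in picked cells but 0.915 times as often in droplet neurons, so the 2 data sets differed in direction. It met Calca, the gene of the peptide CGRP, in 43 picked cells against 25.3, and at a ratio of 1.01 in droplet neurons. With Piezo2, a stretch-gated channel, the ratio in droplet neurons was 1.48 for Asic1 and 1.65 for Asic3.

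Likeness was measured as Pearson's correlation, first over the 29 mouse means among 12692 genes and then over the 28 droplet clusters among 11188 genes, as descriptions over points that share codes, depth or a library. Over mice, the genes most like Asic1 included Gabrb1 (0.83), Ctnna2, Ece1 and Parp8, and the most opposite was Cacna1h (-0.76), followed by Ctbp2 and Atp6v1g1. For Asic2 they included Gtdc1 (0.78), Rgs7, Srgap3 and S100b (0.72), with Galnt18 (-0.73), Gbas and Tcn2 at the other end. For Asic3 the highest values were weaker, from 0.53 for Isyna1 through Fam32a, Lzts1 and Adra2b to 0.51 for Miip, with Utp11l (-0.73), Cyfip1 and Sec24a lowest. Over clusters the leading genes included Aak1 (0.88), Plcxd2, Zfp521, Ryr2 and Panx2 for Asic1, Dscam (0.79), Fam173a, Pcsk2, Rimbp2 and P4ha2 for Asic2, and Arl4c (0.76), Gpatch1, Ankrd9 and Uvrag for Asic3. Between the members themselves the correlation over clusters was 0.62 for Asic1 with Asic3, 0.52 for Asic2 with Asic3 and 0.32 for Asic1 with Asic2, and over mouse means it was -0.01, -0.27 and -0.16.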

How the data were processed

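Per the labels' protocols, ganglia were dissociated with papain, collagenase and dispase, and cells went into 1 droplet library or were picked for Smart-seq2 with Nextera tagging. The submitters' processing notes name Cell Ranger 2.0.1 and the build mm10, and for the picked cells they state no aligner or counter. Values in the deposited droplet matrices are counts (UMIs of a gene in a barcode). The deposited picked-cell table holds log2 values of reads per gene and cell, with a floor at the log2 of 0.02 that was read as 0 reads. Of its values above the floor 94.1% gave whole reads within 1 part in 1000. Of its columns 1 had no matching sample name and was left out, and of the 452 others 3 had fewer than 2000 genes, which left 449 (105 Gast, 169 Int, 122 Port and 53 na). At 10 reads Asic1 was detected in 122 of them, Asic2 in 393 and Asic3 in 62. The gene table deposited with the matrices holds names and identifiers (unit other, per the file headers).

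Mouse means of log2(CPM + 1) over cells entered 1 fit of the 7 codes in limma 3.58.1 under R 4.3.3, with its trend option. A gene was kept if at least 5% of cells held 10 reads of it, and p-values were adjusted over all 12693 genes. The Port mouse with 2 cells did not enter. A call is an adjusted p under 0.05. Nothing says whether mice of a code were processed together or apart, so differences between codes cannot be told apart from differences of processing. The p-values set a difference against the spread between these mice within codes. Droplet cells (at least 1000 UMIs and 500 genes) were clustered in scanpy 1.11.5 with Leiden (leidenalg 0.10.2) at resolution 1.5, leaving out the Asic and other acid-sensing genes. Of 1108 cells 3 were marked as doublets and none was removed. Jugular-like means at least 3 raised jugular markers, lowered nodose markers and a mean log2 ratio of jugular markers to other neurons above 1. By this score cluster 19 stood at 3.91 and cluster 21 at 0.88, under the limit. Intervals are exact Clopper-Pearson or Poisson at 95%, and a count of 0 allows 3 counts. Sequences came from GENCODE M21 transcripts. The fits were also run on simulated data with known changes, whose outcome is not reported here, so no result rests on it. Alternatives were other pseudocounts, no filter, edgeR 4.0.16 (TMM), summed reads, other cell and mouse sets, and each mouse left out. Named genes were the 3 members, every list gene past the threshold between Gast and Int, and the 5 most alike and 3 most opposite genes. Some genes that met these rules or stood on the marker lists are not reported here. The genes and lists were chosen with earlier results of these data known.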

Additional observations from a re-analysis of the deposited data

Results flagged for a closer look

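In 12 groups of 4 to 8 mice, 2 mice lay far from the others by a criterion that flags about 1 group in 20 by chance. IntP mouse 17 had an Asic3 level of 1.06, the highest of 4 mice, with a gap to its neighbour of 0.831 of the whole range. Port mouse 46 had an Asic3 level of 2.04, the highest of 8, with a gap of 0.529 of the range. Without Port mouse 46 the Asic3 difference of Port from Gast and Int was -0.03 in place of 0.14.

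The 53 cells coded na, which stand in no comparison, also carried the 3 genes. At 10 reads Asic1 was detected in 28.3% of them, Asic2 in 83.02% and Asic3 in 15.1%.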

How the results depend on the processing

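The Asic1 difference between Gast and Int and the Asic2 difference between IntP and the mean of IntM and IntD kept their direction and their call in all 10 alternatives and with any of the 29 mice left out, the first between 1.08 and 1.46 and the second between 1.12 and 1.54 on leaving out mice. Some of these settings could not move the estimates, as they changed no mouse of the contrast. The Asic2 difference stayed at 1.38 with no filter, every coded mouse, mice numbered up to 39 or no mice of high nerve injury transcripts. The Asic1 difference stayed at 1.28 with no filter, with every coded mouse and with a Port mouse left out. No paired analysis was possible because mouse numbers do not repeat across codes. Directions that turned were all of differences that had not been called, and the cause was not tested. With reads summed per mouse, Asic3 in Gast minus Int became 0.32, Asic1 in GastG minus GastP -0.19, Asic2 in IntL minus the other Int codes 0.0015 and Asic2 in IntM minus IntD 0.20. In edgeR these turned: Asic3 Gast minus Int 0.78, Asic1 GastG minus GastP -0.21, Asic1 IntP minus IntM and IntD 0.20, Asic2 and Asic3 IntM minus IntD 0.14 and 0.065, and Asic3 IntL minus Gast -0.036. Without the 2 fullest matched clusters, Asic3 Gast minus Int was 0.018, Asic1 Port minus Gast and Int -0.052, Asic1 GastG minus GastP -0.21, Asic1 and Asic2 IntM minus IntD -0.078 and 0.66, and Asic3 IntL minus Gast -0.0078. With mice numbered up to 39, Asic3 GastG minus GastP was -0.23. Leaving out mice gave ranges across 0 for Asic3 Port minus Gast and Int (-0.033 to 0.26), Asic1 GastG minus GastP (-0.040 to 0.71), Asic3 GastG minus GastP (-0.061 to 0.23) and Asic2 IntM minus IntD (-0.46 to 0.27), and a range of -1.01 to -0.66 for Asic2 IntL minus the other Int codes, called without IntD mouse 14. F values that lost their call were 4.19 (summed reads) and 4.12 (edgeR) for Asic2 across Int codes, 3.60 (2 clusters left out) and 3.27 (edgeR) for Asic1 across all codes, and 3.38 (summed reads) and 2.83 (edgeR) for Asic2 across all codes. Of the acid-sensing list, 4 higher became 2 with summed reads and 1 without the 2 clusters, and 4 lower became 2 with no filter, with summed reads and with mice up to 39, and 1 without the 2 clusters. Leaving out mice gave 3 to 4 higher and 2 to 4 lower, with 2 lower without GastG mouse 41. Without the 2 clusters 545 genes were called between Gast and Int in place of 1874. Shares of picked cells followed the threshold and the depth: at 1 read they were 48.5%, 96.9% and 21.4% for Asic1, Asic2 and Asic3, at 100 reads 4.68%, 24.3% and 2.45%, and at 10 reads after thinning to 100000 reads 1.56%, 13.2% and 1.34%. Shares of droplet neurons were 19.1%, 37.4% and 6.90% after thinning to 10000 UMIs and 25.8%, 61.8% and 8.37% at 2 UMIs. The Asic3 ratio of the jugular-like cluster was 8.69 at resolution 1, where it took in cluster 21. The levels of the 3 genes in cluster 9 without cells holding an endothelial UMI, and in neurons without cluster 9, stayed within the counting intervals, and both settings were chosen after seeing the data.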
